A study of Mus musculus with 8 samples.

Results

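Collagens are the main structural proteins of the extracellular matrix, and the open chromatin of their genes was read here from ATAC-seq peak lists of mouse mammary tumor cells. The genes were the protein-coding genes of the GENCODE M21 annotation whose symbol is Col, a number, a and a number. This gave 44 collagen genes of 21755 protein-coding genes on chromosomes 1 to 19 and X, and they were grouped as 11 fibrillar, 6 basement membrane and 27 other collagens. The cells were cultures derived from PyMT mouse mammary tumors of the strain labelled FBV/N, either WT or Lats1-CKO, in which the kinase gene Lats1 was conditionally knocked out. The promoter that drove the knockout is not given in the sources used here, and all cells carried the PyMT oncogene. Cells were sorted by EpCAM and CD49f into a luminal population (EpCAM-high and CD49f-high) and a basal one (EpCAM-low and CD49f-high), which the study calls basal-like, and were briefly expanded. WT luminal libraries are BM1 and BM5, WT basal BM2 and BM6, Lats1-CKO luminal BM3 and BM7, and Lats1-CKO basal BM4 and BM8.

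A collagen molecule is a triple helix of alpha chains, which can come from a single gene or from different genes. Fibrillar collagens assemble into the tensile fibers of the stroma, which fibroblasts mainly make. Type IV collagens form the sheet-like network of the basement membrane under epithelia, and the remaining collagens decorate fibrils, anchor the basement membrane, form beaded filaments or span the cell membrane. In mammary tumors, collagen density and alignment are features of the stroma, while tumor cells themselves can make collagens as they take on mesenchymal traits.

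Each list gave the position and the score of the peaks called in 1 library, and the score was used as a percentile among the peaks of its own library, where 100 is the highest. The lists hold no read counts, so sequencing depth was unknown and only the number of peaks was at hand. It ran from 51497 to 72685 in WT libraries and from 86279 to 99022 in the Lats1-CKO libraries BM4, BM7 and BM8, and was 14753 in the Lats1-CKO luminal library BM3. BM3 had the fewest collagen peaks of the 8 libraries, and group comparisons that rest on it are given with and without it. A missing peak means that none was called. Lats1 itself had a peak near its transcription start site (TSS, 1 kb to either side) in every library but BM3, which does not read out the deletion. Of 14 luminal marker genes, 14 and 12 had a TSS peak in BM1 and BM5, 12 in BM7 and 7 in BM3, against 11 and 9 in BM2 and BM6 and 6 and 5 in BM4 and BM8. Epcam had no TSS peak in BM4 and BM8. Of 10 basal and myoepithelial markers, between 2 and 7 had one, with no order by population, and of 5 immune and 4 endothelial markers at most 2 each.

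Collagen TSSs carried fewer peaks than those of other genes in WT cells, and about as many in most Lats1-CKO libraries. Their peaks were weaker in both genotypes, BM3 aside. In WT cells, a TSS peak, meaning one within that distance of a TSS, was called for 21 of the 44 collagen genes in BM1 and 10 in BM5 (luminal), and for 18 in BM2 and 16 in BM6 (basal). These were 47.7%, 22.7%, 40.9% and 36.4% of the collagen genes, against 56.4%, 49.1%, 54.4% and 51.2% of all protein-coding genes. In Lats1-CKO cells it was called for 28 collagen genes in BM7, 23 in BM4 and 26 in BM8, or 63.6%, 52.3% and 59.1%, against 57.7%, 55.6% and 56.7% of all genes. BM3 had 1 collagen gene with a TSS peak (2.27%), against 33.9% of all genes. The 3 other Lats1-CKO libraries were thus above all WT libraries and BM3 was below them, and the mean over 4 libraries was 19.5 ± 12.5 (SD, n = 4) in Lats1-CKO and 16.25 ± 4.65 in WT, a difference well within the spread. Leaving out BM3 turned this difference of 3.25 into 10, and leaving out BM7 into -3.5. With all libraries, it was 0.25 among the 10000 highest-scoring peaks of each and 4.0 among peaks above the library median. BM4, BM7 and BM8 also had more peaks in all than the WT libraries, and the part of this was not tested. Where present, collagen TSS peaks had a median score percentile of 37.7 to 57.6 in the 7 libraries other than BM3, and TSS peaks of all genes one of 77.0 to 84.3.

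**Figure D1:**
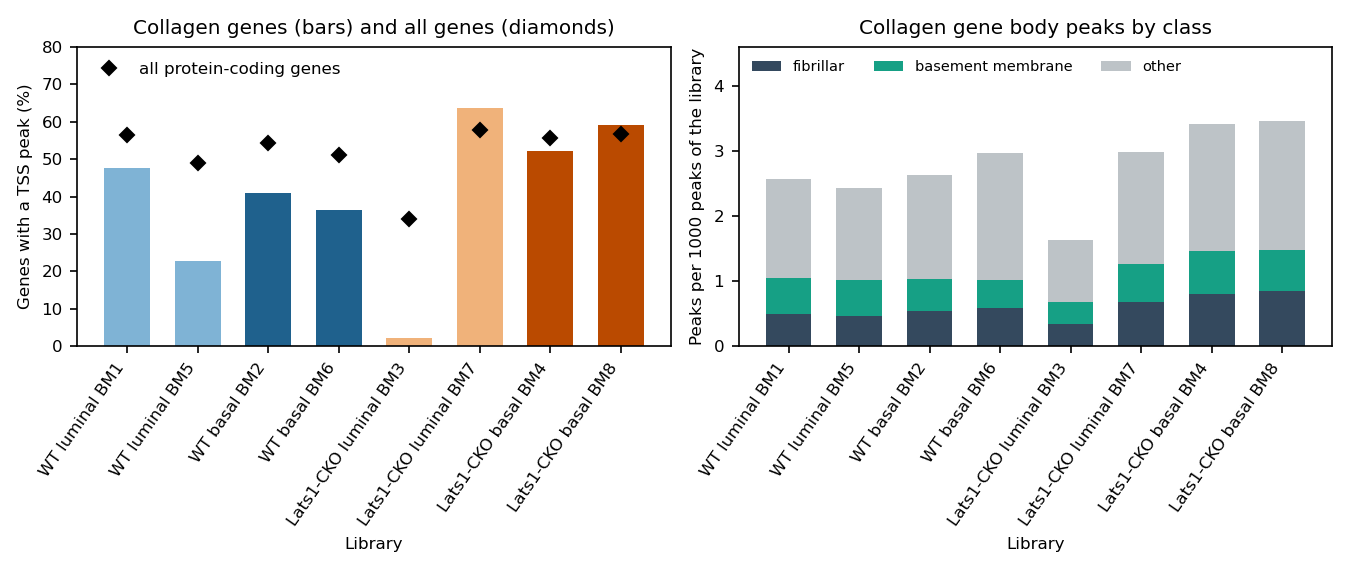
Left, percent of the 44 collagen genes (bars, colored by group) and of all protein-coding genes (diamonds) that had a TSS peak, for each library. Right, collagen gene body peaks per 1000 peaks of the library, stacked by class. The collagen bars lie under the diamonds in the 4 WT libraries, above them in BM7 and BM8, and at 2.27% in BM3.

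By class, fibrillar genes with a TSS peak numbered 5 and 3 of 11 in BM1 and BM5, 5 and 3 in BM2 and BM6, 6 in BM7, and 5 and 6 in BM4 and BM8. Of the 6 basement membrane genes, all had one in BM1 and BM7, against 2 in BM5, 3 and 1 in BM2 and BM6, and 3 and 5 in BM4 and BM8. Of the 27 other collagens, 10 and 5 had one in BM1 and BM5, 10 and 12 in BM2 and BM6, 16 in BM7, and 15 in each of the Lats1-CKO basal libraries. The other collagens were the class in which the Lats1-CKO libraries besides BM3 all exceeded the WT libraries. The map of TSS peaks by gene shows that most genes were open in some libraries of a group and not in others.

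**Figure D2:**
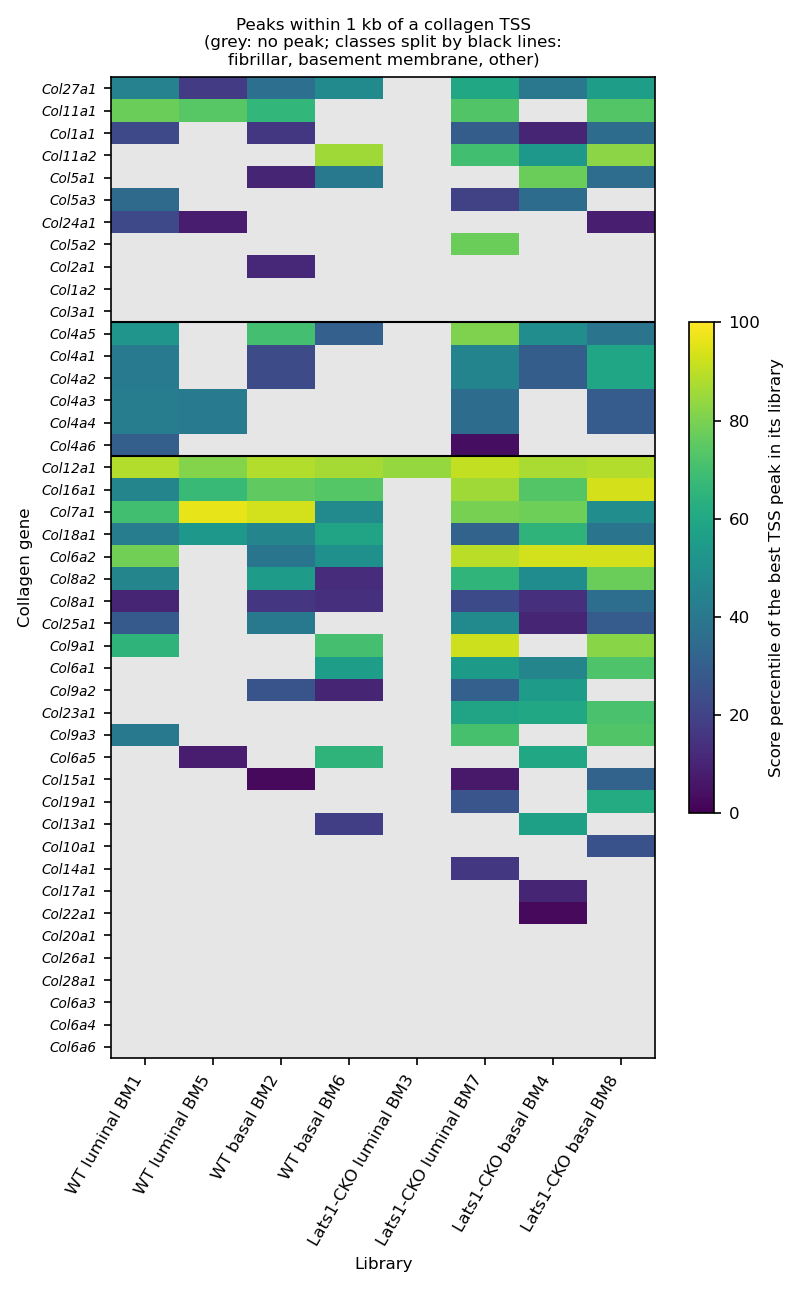
Score percentile (color, 0 to 100) of the best peak within 1 kb of a TSS for the 44 collagen genes (rows, split into fibrillar, basement membrane and other by black lines) in the 8 libraries (columns, by group), with grey for no peak. Col12a1 is the row filled in all 8 columns, Col5a1 is filled in the basal columns alone, and 8 rows are empty.

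The genes of type I and type III collagen, the major fibers of stroma, showed little open chromatin at their starts. Col1a1 (ENSMUSG00000001506, GRCm38 chromosome 11, 94936224 to 94953042, plus strand) had a called start in 5 libraries, with a score percentile of 22.2 in BM1, 16.3 in BM2, 10.3 in BM4, 29.5 in BM7 and 35.4 in BM8. All were low within their library, and the peak lay in an intron, its center 855 bp after the TSS. Col1a2, which encodes the partner chain of Col1a1, and Col3a1 (ENSMUSG00000026043, chromosome 1, 45311538 to 45349706, plus strand) had no TSS peak in any library. Within its body, Col3a1 had 0, 1, 0, 3, 1, 0, 1 and 1 peaks in BM1 to BM8, and Col1a2 had at most 3 in a library. Col2a1, the fiber-forming collagen of cartilage, had a TSS peak in BM2 alone (11.4).

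Col5a1 was the gene that separated the populations. It encodes a chain of type V collagen, a minor component that sits inside type I fibrils and sets their diameter (ENSMUSG00000026837, chromosome 2, 27886425 to 28039514, plus strand). Its best TSS peak had a score percentile of 10.5 in BM2 and 40.3 in BM6 (WT basal) and of 77.5 in BM4 and 35.8 in BM8 (Lats1-CKO basal), and no TSS peak was called in the 4 luminal libraries. The groups did not overlap, with a difference of means of 41.0 percentile points (exact permutation test over the 8 libraries, two-sided, p = 0.029, the smallest that 4 against 4 can give). Across all 13104 genes with a TSS peak in at least 2 libraries, 132 reached this p, and none, Col5a1 included, passed after Benjamini-Hochberg adjustment. A TSS peak in every basal and no luminal library was found for 4 of 14221 genes (0.0281%), namely Col5a1, Naip2, Pdgfrb and Ptgr1, and the reverse for 2 (0.0141%), no collagen among them. Pdgfrb, a receptor used as a fibroblast marker, had 22.3, 62.0, 89.9 and 49.7 in BM2, BM6, BM4 and BM8. Of 11 fibroblast markers, 7 had a TSS peak in BM4 and in BM8 and 1 to 4 in the other libraries, with a summed percentile of 428.7 and 346.2 against 61.3 to 188.1, and Thy1, Lum and Prrx1 had none in any library. The part of other cells in the Col5a1 peak was not tested, and fewer cells with the open site cannot be told apart from less opening per cell.

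The peak shared by the 4 basal libraries merged to a region at chr2:27886228-27886484, whose center lies 69 bp before the TSS, and it runs into the first exon's UTR. In BM8 this region had 33.0, and the best peak was another one just inside the gene. Its upstream part (chr2:27886228-27886424, plus strand, GRCm38.p6, GC content 75.1%) is shown because it carries the basal pattern. None of 5 motifs that were searched on both strands (AP-1 as TGANTCA, TEAD as GGAATG, RUNX as TGTGGT, E-box as CAGGTG and the CCAAT box by its name) is in it, while 23.3%, 14.8%, 20.3%, 13.8% and 22.4% of all regions in protein-coding loci hold them in a central window of the same length, 197 bp. In all sequences below, capitals mark matches to these motifs, and a match shows letters, not binding.
Col5a1 upstream: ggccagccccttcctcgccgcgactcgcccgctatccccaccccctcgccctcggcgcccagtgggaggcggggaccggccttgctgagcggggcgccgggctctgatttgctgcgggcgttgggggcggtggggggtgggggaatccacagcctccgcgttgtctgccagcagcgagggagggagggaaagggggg

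The partners and relatives of Col5a1 did not share its pattern. Col5a2, the usual partner chain, had a TSS peak in BM7 alone (77.4), and Col5a3 in BM1, BM4 and BM7 (34.5, 35.3 and 19.9). Col11a1 and Col11a2 encode chains of type XI collagen, the close relative of type V. Col11a1 had 77.6 and 73.9 in BM1 and BM5, 66.1 in BM2, 73.0 in BM7 and 73.2 in BM8, from a region upstream of its TSS, and none in BM6, BM3 and BM4. Col11a2 had 85.6 in BM6, 69.8 in BM7, 53.2 in BM4 and 82.6 in BM8, and none in the other libraries. Col27a1, a fibrillar collagen of cartilage and other tissues, had a TSS peak in every library but BM3, at 17.7 to 47.6 in WT and 40.0 to 59.4 in the Lats1-CKO libraries with a peak. Col24a1 had weak peaks in BM1, BM5 and BM8, none above 22.2.

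Among basement membrane collagens, Col4a1 and Col4a2 share a start region and therefore values, as do Col4a3 and Col4a4. Col4a5 and Col4a6 start 1309 bp apart and have separate values. Col4a1 and Col4a2, whose products make up the widespread network of type IV collagen, start 21 bp apart on opposite strands. Their shared peak had 40.8 in BM1, 22.8 in BM2, 29.4 in BM4, 45.2 in BM7 and 59.2 in BM8, and was missing from BM5, BM6 and BM3. Col4a3 and Col4a4, which encode chains of specialised basement membranes such as that of the kidney glomerulus, have coding-transcript starts 127 bp apart on chromosome 1. Their shared region at chr1:82586653-82586938 had 42.4 in BM1, 41.6 in BM5 and 35.4 in BM7, and no peak in the 4 basal libraries and BM3. This was 1 of 619 regions of collagen loci that were in all 3 luminal libraries other than BM3 and in no basal library, against 0.186% of all regions in protein-coding loci without BM3. At the gene level the pattern was not complete, since BM8 had another peak close by, at chr1:82586969-82587148 (29.2). The 71 bp between the annotated 5′ ends of both genes lie in the luminal region. They are shown on the Col4a3 strand (chr1:82586850-82586920) because they are the stretch the pair shares, and they hold none of the 5 motifs.
Col4a3 and Col4a4 interval: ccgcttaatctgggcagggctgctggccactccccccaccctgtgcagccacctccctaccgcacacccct
Col4a5 had TSS peaks in every library but BM3 and BM5, at 30.7 to 80.5. Col4a6 had them in BM1 (30.3) and BM7 (3.53), both luminal.

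Col12a1 was the collagen gene with the most uniform start. It encodes a fibril-associated collagen that bridges fibrils to other matrix (ENSMUSG00000032332, chromosome 9, 79598991 to 79718831, minus strand), and it was the sole collagen gene with a TSS peak in all 8 libraries and the sole one in BM3. The score percentile was 88.4 and 81.2 in BM1 and BM5, 88.6 and 86.7 in BM2 and BM6, 84.4 and 90.8 in BM3 and BM7, and 87.1 and 88.6 in BM4 and BM8. All lay within 10 points of each other, and the fitted difference was 1.5 ± 4.6 (SE) between genotypes and 1.6 ± 4.6 between populations (limma, adjusted p = 0.9999 and 0.973).

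Col23a1 had the most complete genotype pattern. It encodes a transmembrane collagen that can be shed from the cell surface (ENSMUSG00000063564, chromosome 11, 51289920 to 51583918, plus strand). Its TSS peak had a score percentile of 59.8 in BM4, 58.6 in BM7 and 71.2 in BM8, and none was called in the 4 WT libraries or in BM3. The fitted difference between Lats1-CKO and WT was 47.4 ± 13.4 percentile points (SE), with an adjusted p of 0.9999 over 13104 genes (limma), and the exact permutation test gave p = 0.143. Without BM3, a TSS peak in every Lats1-CKO and no WT library was found for 96 of 14210 genes (0.676%), and Col23a1 was 1 of the 36 collagen genes with a TSS peak in any library. With BM3 included, no gene of 14221 (0.0%) had a TSS peak in all Lats1-CKO and no WT libraries, and 12 (0.0844%) had the reverse, with no collagen among them. The region is upstream of the gene at chr11:51289578-51289739, its center 261 bp before the TSS, and its sequence, shown for this pattern, holds none of the 5 motifs.
Col23a1 upstream: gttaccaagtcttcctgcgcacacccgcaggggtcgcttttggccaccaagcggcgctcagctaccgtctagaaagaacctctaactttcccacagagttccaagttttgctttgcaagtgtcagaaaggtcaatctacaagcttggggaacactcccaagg
A second region with the same pattern lies in an intron of Col23a1, at chr11:51353890-51354120, with 27.4 in BM4, 28.8 in BM7 and 72.9 in BM8. It holds an AP-1 and a TEAD match, which 24.6% and 16.7% of all regions hold in a window of its length.
Col23a1 intron: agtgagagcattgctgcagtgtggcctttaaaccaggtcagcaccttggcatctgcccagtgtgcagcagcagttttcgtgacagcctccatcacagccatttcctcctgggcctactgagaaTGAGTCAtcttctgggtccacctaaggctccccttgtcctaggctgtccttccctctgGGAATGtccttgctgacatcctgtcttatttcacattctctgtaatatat

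Besides Col12a1, TSS peaks in every library but BM3 were found for Col7a1, Col16a1, Col18a1 and, as given before, Col27a1. Col7a1, which forms the anchoring fibrils that tie epithelium to stroma, had 69.7 and 96.2 in BM1 and BM5, 93.0 and 47.6 in BM2 and BM6, 79.5 in BM7, and 77.8 and 49.2 in BM4 and BM8. Col16a1, a fibril-associated collagen, had 45.5 and 67.2 in BM1 and BM5, 75.4 and 73.6 in BM2 and BM6, 85.9 in BM7, and 73.2 and 93.4 in BM4 and BM8. Col18a1, a proteoglycan-like collagen whose end fragment is endostatin, had 31.7 to 64.9 in these 7 libraries. Its close relative Col15a1 had peaks in BM2, BM7 and BM8 alone (2.58, 6.84 and 32.0). Col17a1, a transmembrane collagen of hemidesmosomes made by basal epithelial cells, had a TSS peak in BM4 alone (10.3).

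Type VI collagens form beaded filaments in nearly all connective tissue. Col6a1 had 55.8 in BM6, 54.4 in BM7, 45.5 in BM4 and 72.4 in BM8, and none in the other 4 libraries. Col6a2 had 78.7 in BM1, 38.8 in BM2, 50.1 in BM6, 89.5 in BM7, 93.2 in BM4 and 93.5 in BM8, so that the 3 Lats1-CKO libraries with a peak were above the WT libraries. Col6a3, the longest of the 3 classical chains, had no TSS peak. Col6a5 had 59.6 in BM4, 65.1 in BM6 and 8.20 in BM5. The chains that assemble with each other thus differed in which libraries had a peak at their start. Of the cartilage collagens of type IX, Col9a1 had 65.1 in BM1, 70.5 in BM6, 92.3 in BM7 and 82.0 in BM8, and Col9a3 40.4 in BM1, 70.9 in BM7 and 72.7 in BM8. Col9a2 had 25.9 in BM2, 10.3 in BM6, 30.8 in BM7 and 55.3 in BM4, and thus none in BM1 and BM8. Col20a1, Col26a1, Col28a1, Col6a4 and Col6a6 had none in any library, as had Col1a2, Col3a1 and Col6a3.

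Fitted across all genes and all 8 libraries, no collagen gene passed. The fit used the score percentile of the best TSS peak, with 0 for no peak, in 13104 genes, 30 of them collagens, and called no gene at an adjusted p below 0.05 between genotypes or between populations (0.0% and 0.0%). Before adjustment, at the level of 0.05, limma listed 390 genes (2.98%) for genotype, with Col23a1 as the collagen, and 324 (2.47%) for population, with Col5a1. For Col5a1 the fit gave 41.0 ± 11.7 points (SE, adjusted p = 0.957). The exact permutation test listed 165 and 132 genes and called none after adjustment. With BM7 left out, so that BM3 was the sole Lats1-CKO luminal library and was taken to vary like the others, limma called 1374 genes for genotype, Col23a1 among them, and 2145 for population, with Col16a1 and Col23a1. The interaction of genotype and population also called none, with 369 genes and no collagen listed before adjustment. The median fitted difference of the 30 collagens was 8.62 points for Lats1-CKO minus WT, against -1.58 over all genes tested, and 7.89 for basal minus luminal, against 6.13. Both rest on the Lats1-CKO luminal libraries: without BM3 they were 16.6 (all genes 5.23) and -0.143 (all genes -1.14), and without BM7, with 28 collagens tested, 0.996 (all genes -9.32) and 20.4 (all genes 14.8). After Col23a1, the largest genotype differences were those of Col11a2 (30.0), Col6a1 (29.1), Col6a2 (27.2) and Col9a3 (25.8), and in the other direction Col7a1 (-25.0), Col11a1 (-17.9), Col18a1 (-16.1), Col4a6 (-6.7) and Col24a1 (-5.46). Those of population, after Col5a1, were Col11a2 (37.9), Col6a1 (29.8), Col16a1 (29.2) and Col6a5 (29.1), and in the other direction the shared start of Col4a3 and Col4a4 (-22.5), then Col11a1 (-21.3), Col9a3 (-9.65) and Col4a6 (-8.47). None of these passed the adjusted test, so they are values and no changes. Without BM3, the genotype differences were 62.1 ± 4.14 (SE) for Col23a1 (limma, adjusted p = 0.0812), 49.5 for Col6a2, 47.5 for Col11a2, 43.5 for Col9a3 and 42.7 for Col6a1, and those of Col7a1, Col18a1 and Col11a1 moved to -5.1, -8.14 and 0.402. For population, Col5a1 stayed at 41.0 and Col6a5 at 29.1, the shared start of Col4a3 and Col4a4 moved to -31.4 and Col11a1 to -39.6, and Col11a2, Col6a1 and Col16a1 to 20.5, 16.3 and 7.76.

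The CpG count of 1 promoter a gene went along with the number of libraries with a peak at any TSS. RefSeq promoters (GRCm38.p6, 250 bases before to 50 after the start), nearest the gene's 5′ end, were matched for 35 collagen genes, Col12a1 not among them. The peak can lie at another start than this promoter. TSS regions lay 14255 and 14748 bp after the 5′ end in Col8a2 and 112740 bp after it in Col13a1. The median number of CpG dinucleotides in 300 bases was 3 in the 7 genes without a TSS peak in any library, 9 in the 10 genes with one in 1 to 3 libraries, and 15 in the 18 genes with one in 4 to 8. The ranges overlapped (0 to 14, 3 to 29 and 0 to 37). Across these 35 genes Spearman's rho between CpG count and number of libraries with a TSS peak was 0.48, and across 16433 protein-coding genes it was 0.62. Genes share the libraries and are not independent, so these are descriptions. Among matched collagen promoters, 12 (34.3%) hold a CCAAT box and 3 (8.57%) a TEAD match, against 38.9% and 13.2% of all promoters, while 1 (2.86%) holds an AP-1 match, that of Col6a1, against 7.0%. RUNX matches are in 2 (5.71%, against 14.7%) and E-box matches in 5 (14.3%, against 19.4%). These gaps of a few genes were not tested.

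Most collagen peaks lay in gene bodies, and the Lats1-CKO libraries other than BM3 had more of them. Collagen gene bodies span 5.36 Mb, or 0.517% of the length of all protein-coding gene bodies. Peaks in them numbered 187 and 143 in BM1 and BM5, 186 and 153 in BM2 and BM6, 279 in BM7, 295 and 343 in BM4 and BM8, and 24 in BM3. Per 1000 peaks of the library these were 2.57, 2.43, 2.64 and 2.97 in WT, then 2.99, 3.42 and 3.46, and 1.63 in BM3. BM4 and BM8 lay above the WT libraries, BM7 only just above the highest of them, and BM3 lowest. With each library cut to its 10000 strongest peaks, the values were 2.1 to 2.4 in WT, 2.8 in BM4 and BM7, 3.4 in BM8 and 1.0 in BM3, so that the order held. Set against the density of peaks in all gene bodies, collagen bodies had a ratio of 0.839 to 0.964 in WT libraries, 1.17, 1.0 and 1.13 in BM4, BM7 and BM8, with 0.481 for BM3. The mean difference between genotypes was 0.22 per 1000 with BM3, 0.559 without it and -0.12 without BM7, against a pooled SD within groups of 0.497. Between basal and luminal it was 0.719 with BM3 and 0.38 without.

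By class, fibrillar genes had 0.459 to 0.583 body peaks per 1000 in WT libraries and 0.8, 0.685 and 0.848 in BM4, BM7 and BM8. Basement membrane genes had 0.427 to 0.561 in WT, then 0.661, 0.578 and 0.636. The other collagens had 1.41 to 1.96 in WT and 1.96, 1.72 and 1.98, with overlap. BM3 had 0.339, 0.339 and 0.949, the lowest of the 8 libraries in each class. The libraries with more fibrillar body peaks included BM4 and BM8, in which fibroblast markers had most TSS peaks (7 of 11), and also BM7, in which 3 of 11 had one; their part was not tested.

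Per gene, 7 of the 43 collagen genes with a body peak had more of them per 1000 peaks in each of BM4, BM7 and BM8 than in each WT library (16.3%), against 4.08% of 16464 genes. These were Col5a1, Col5a2 and Col27a1 (fibrillar), Col4a1, Col4a3 and Col4a6 (basement membrane) and Col28a1. In the other direction it was 1 gene, Col16a1 (2.33%), against 12.8% of all genes. Unscaled, Col16a1 was not lower, with 8 or 9 body peaks in WT libraries, 7 in BM4, 11 in BM7 and 12 in BM8. The shares of all genes, here and in the rest of the paragraph, were not matched for gene length or peak count. Collagen genes are longer than most, since 44 of 21755 genes held 0.517% of all gene body length. The WT libraries also had fewer peaks in all, and without scaling to the number of peaks, 12 collagen genes (27.9%) had higher counts, against 9.43% of all genes, and none had lower ones, against 0.0972%. Between populations, with BM3 included, no collagen gene had non-overlapping values, against 1.14% of genes higher in basal and 0.571% higher in luminal libraries. Without BM3, Col4a4 did not overlap, with 0.06419 to 0.08255 per 1000 in luminal and 0.01159 to 0.06059 in basal libraries. Its unscaled counts did overlap, with 4 in BM5 and 6 in BM7 (luminal) and 6 in BM8 (basal). The share of all genes without BM3 was not computed for populations. With BM3 included, 2 collagen genes (Col5a2 and Col27a1) had higher values in all Lats1-CKO libraries, and without BM3 and BM4 the number was 12. A rule over fewer libraries is easier to meet, and the shares of all genes under these rules were not computed. In BM3, Col5a2 and Col27a1 had 1 and 3 body peaks, which scale to 0.0678 and 0.203 per 1000 because BM3 has 14753 peaks. Unscaled, these BM3 counts were not above those of the WT libraries. Among peaks above the median score of their library, 2 of 42 collagen genes with such a peak met the rule (Col26a1 and Col28a1), against 3.71% of all genes. Among the 10000 strongest it was 1 of 33 (Col6a2), against 0.667%. Counts per gene are lower in these sets, and the cause of the smaller number was not tested.

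**Figure D3:**
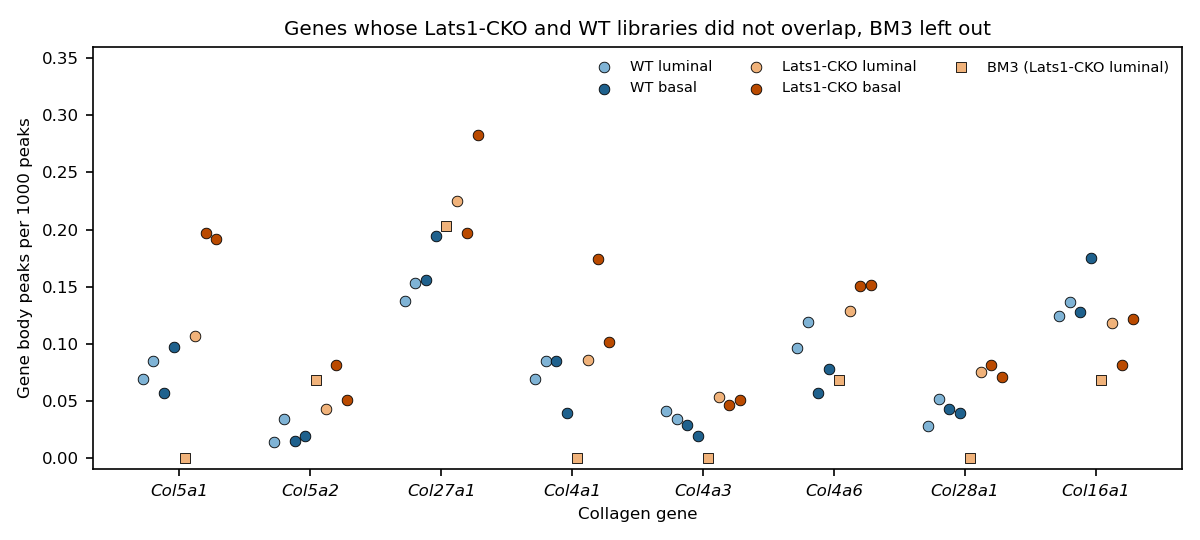
Gene body peaks per 1000 peaks of the library for the 7 collagen genes with higher and the 1 (Col16a1) with lower values in BM4, BM7 and BM8 than in all WT libraries. Each point is a library, colored by group, and the square is BM3. BM4 and BM8 reach 0.197 and 0.192 for Col5a1, where WT libraries stay at or below 0.0971, and BM3 is at 0 for Col5a1, Col4a1, Col4a3 and Col28a1.

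Col5a1 had 5 and 5 body peaks in BM1 and BM5, 4 and 5 in BM2 and BM6, 10 in BM7, 17 and 19 in BM4 and BM8, and 0 in BM3. The Lats1-CKO counts other than BM3 were at least 10 and the WT counts at most 5. Of these peaks, 8 in BM4, 8 in BM8 and 2 in BM7 were above the median score, against 0 to 3 in WT libraries. Col27a1 had 10 and 9 in BM1 and BM5, 11 and 10 in BM2 and BM6, 21 in BM7, 17 and 28 in BM4 and BM8, and 3 in BM3. Above the median score it had 5 or 6 in each WT library and 10, 9 and 16 in BM7, BM4 and BM8, so that the unscaled counts stayed apart among stronger peaks. Scaled to the number of such peaks in each library, Col27a1 did not stay apart. Col4a1 had 5, 5, 6 and 2 in BM1, BM5, BM2 and BM6, 8 in BM7 and 15 and 10 in BM4 and BM8. Col5a2 had 1 or 2 in WT libraries, 4 to 7 in these 3 and 1 in BM3.

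**Figure D4:**
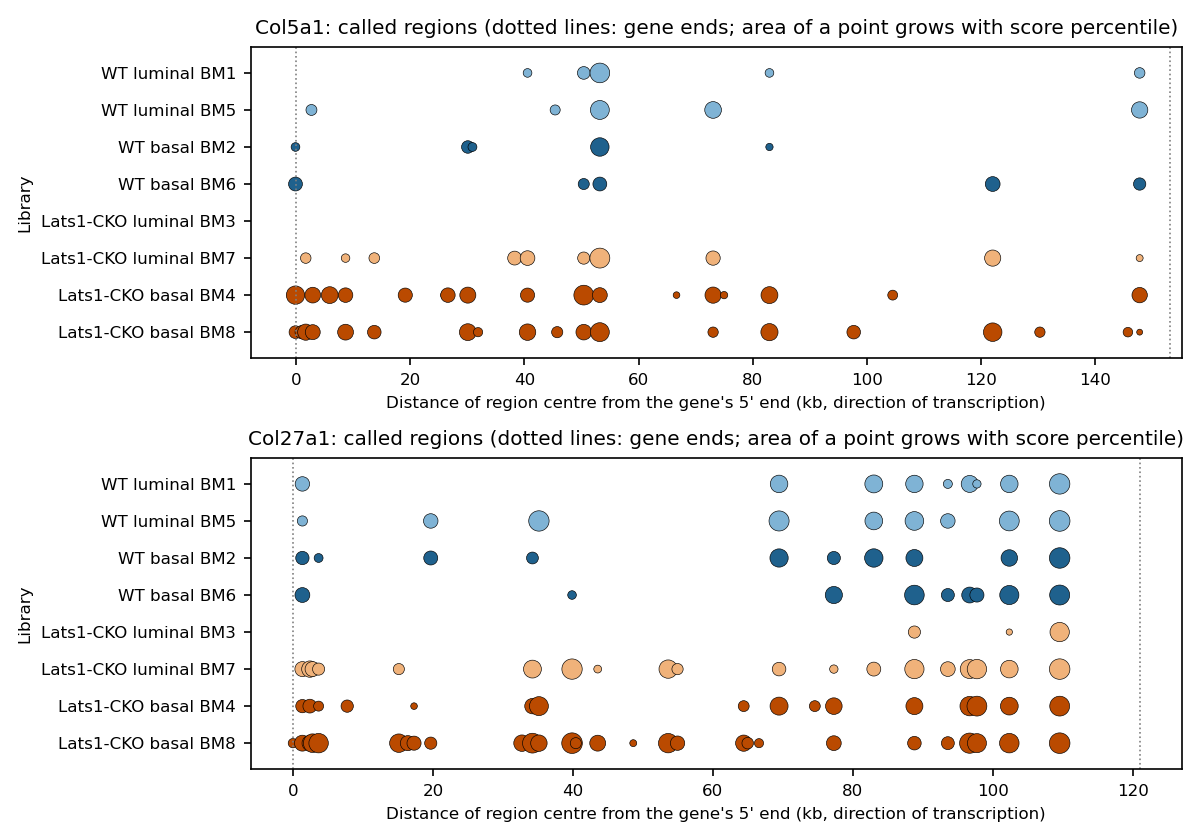
Called regions along Col5a1 (top) and Col27a1 (bottom) by distance of the region's center from the gene's 5′ end in kb, one row per library, with point area growing with score percentile. Col5a1 has points at its 5′ end in the 4 basal rows and more points along its body in the Lats1-CKO rows other than BM3, and Col27a1 has a group of regions near 90 to 110 kb in all rows.

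Per length, the densest collagen gene was Col16a1, with 128.0 peaks per 100 kb summed over the 8 libraries, ahead of Col9a3 (90.2), Col27a1 and Col4a2 (90.1 each) and Col1a1 (89.2). Summed over libraries of unequal peak number, Col4a2 had the most (123), then Col27a1 (109), Col18a1 (88), Col15a1 (78) and Col8a1 (73). The order differed by library, since Col27a1 was ahead of Col4a2 in BM7 (21 against 18) and BM8 (28 against 21). Col8a1 encodes a short-chain collagen of the network type. Col4a2 had 16 and 12 in BM1 and BM5, 19 and 11 in BM2 and BM6, 18 in BM7, 22 and 21 in BM4 and BM8, and 4 in BM3, so that its groups overlapped. Col10a1, the collagen of growth-plate cartilage, was the sole gene without a body peak, and Col25a1, the longest at 468.4 kb, had 14.7 peaks per 100 kb.

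Merging the peaks of all libraries gave 619 regions in collagen loci, taken, from 5 kb upstream to the end of the gene. Of these, 502 were intronic, 42 in coding exons, 36 upstream, and the rest in UTRs, at the border of a UTR and coding exon, or in exons of non-coding transcripts. Most were in few libraries, with 279 in a single one and 20 in all 8 (3.23%), against 8.02% of the 108144 regions in protein-coding loci. Over 1 kb from any TSS, 19 of 558 regions in collagen loci and 2390 of 82887 in all loci were in all 8. There the collagen share was not the lower one. With BM3 left out, 12 regions were in all Lats1-CKO and no WT libraries (1.94%), against 1.58% of all such regions, which is close to the background. The reverse was seen for none, against 0.0659%. All but that of Col23a1 upstream of its start were intronic, in Col14a1, Col19a1, Col23a1, Col25a1, Col27a1, Col28a1 (2), Col4a3, Col5a1, Col6a3 and Col8a1. The Col5a1 start was the 1 region in all basal and no luminal libraries, against 0.0952% of all regions. Within Col5a1, the intronic region of this kind lies 8699 bp after the start (chr2:27895029-27895219), with 45.1 in BM4, 9.77 in BM7 and 55.2 in BM8. It holds a RUNX and a CCAAT match, which 19.9% and 21.8% of regions hold in a window of its length, and is shown as the member of the set that lies in the gene described above.
Col5a1 intron: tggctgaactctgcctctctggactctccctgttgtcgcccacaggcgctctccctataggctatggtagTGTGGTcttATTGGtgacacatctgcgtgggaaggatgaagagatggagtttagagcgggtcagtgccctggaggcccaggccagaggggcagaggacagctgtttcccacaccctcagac

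Regions open in all 8 libraries were nearly all away from starts. Of the 20, 19 lay over 1 kb from any TSS, and the Col12a1 start was the other. They included 3 each in Col27a1 and Col8a1 and 2 each in Col15a1 and Col4a2. The strongest outside a start was in a coding exon of Col27a1, with score percentiles of 86.5 in BM3 and 91.8 to 99.96 in the other libraries. An intronic region of Col6a3, which had no TSS peak, had 94.7 and 96.8 in BM1 and BM5, 94.2 and 95.3 in BM2 and BM6, 78.2 and 94.1 in BM3 and BM7, and 98.3 and 97.6 in BM4 and BM8. In the central 200 bp, 13 of these 19 regions (68.4%) hold an AP-1 match, against 44.5% of the 2390 regions of all loci that are in all 8 libraries and as far from a TSS. Among all regions as far from a TSS, in any number of libraries, the share is 30.5% of 558 in collagen loci and 27.9% of 82887 overall. TEAD matches are in 5 of the 19 (26.3%), against 20%, E-box matches in 4 (21.1%), against 14.6%, and RUNX matches in 3 (15.8%), against 24.6%. With 19 regions, some of them in the same gene, these shares are a description and were not tested. Of the 12 regions in 3 Lats1-CKO libraries and no WT library, 3 hold AP-1, 5 RUNX and 2 TEAD matches (25.0%, 41.7% and 16.7%), against 24.1%, 23.5% and 17.5% of the 1698 such regions in all loci. The regions of Col6a3 (chr1:90834848-90835142, minus strand) and Col18a1 (chr10:77142323-77142621, minus strand) are shown as examples with AP-1 matches, and in the second an AP-1 and an E-box match overlap. Windows of their lengths hold AP-1 in 26.4% and 26.5% of all regions.
Col6a3 intron: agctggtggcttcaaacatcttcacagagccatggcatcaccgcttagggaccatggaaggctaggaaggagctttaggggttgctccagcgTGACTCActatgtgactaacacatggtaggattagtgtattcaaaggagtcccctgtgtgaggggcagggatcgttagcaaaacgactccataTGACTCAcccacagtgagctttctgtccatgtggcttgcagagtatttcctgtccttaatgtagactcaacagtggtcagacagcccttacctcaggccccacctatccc
Col18a1 intron: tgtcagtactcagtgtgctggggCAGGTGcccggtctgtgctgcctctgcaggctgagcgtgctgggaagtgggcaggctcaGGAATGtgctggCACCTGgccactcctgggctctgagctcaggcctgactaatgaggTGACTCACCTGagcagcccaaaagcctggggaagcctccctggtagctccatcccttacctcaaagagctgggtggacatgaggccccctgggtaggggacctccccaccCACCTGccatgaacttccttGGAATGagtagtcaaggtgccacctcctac

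**Figure D5:**
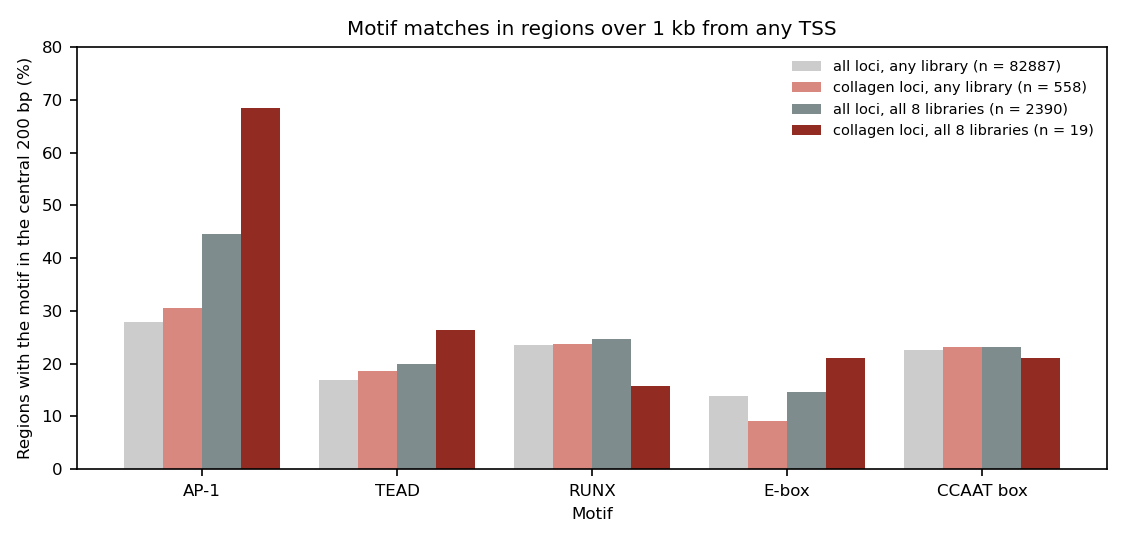
Percent of regions over 1 kb from any TSS with a motif match in the central 200 bp, for 5 motifs, in all loci and in collagen loci, among regions of any library and among those in all 8 libraries. The AP-1 share is 68.4% for the 19 collagen regions in all 8 libraries and 44.5% for the 2390 such regions in all loci, and the other 4 motifs stay below 27%.

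The genes that make and handle collagen were counted in the same way. Of 18 genes of collagen synthesis and folding, 14 or 15 had a TSS peak in each WT library, 16 in the Lats1-CKO libraries other than BM3, and 9 in BM3. P4ha1, a prolyl hydroxylase subunit, had 86.5 to 98.1 in all 8 libraries, and Serpinh1, the collagen chaperone HSP47, had 24.3 to 89.1 in all but BM3. P4hb, a widely expressed subunit of the same enzyme, had no TSS peak in any library. Of 17 genes of processing and cross-linking, 8 to 11 had a peak in WT libraries, 10 in BM4, 14 in BM7 and BM8, and 1 in BM3. Loxl3, a lysyl oxidase, had 46.2 and 18.8 in BM1 and BM5, 31.8 and 39.8 in BM2 and BM6, 91.6 in BM7, and 78.5 and 92.6 in BM4 and BM8, without overlap once BM3, which had none, was left out. The share of all genes whose TSS percentiles did not overlap in this way was not computed. Fmod, a small proteoglycan that binds fibrils, had peaks in BM7 (84.4) and BM8 (93.6) alone. Of 8 receptor genes, 4 had a peak in each library but BM3, which had 2. Ddr1 and Itgb1 had one in all 8 libraries and Itga1 in all but BM3, while the fourth was Itga2 in BM1 and BM2, Mrc2 in BM4 and Itga10 in the remaining libraries. Of the 7 measured genes of collagen degradation, 6 had one in BM4 and 0 to 2 in the other libraries, with Mmp2, Mmp8 and Mmp14 in BM4 alone (61.2, 62.4 and 73.2). None of the genes of these lists passed the adjusted test of limma.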

How the data were processed

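ATAC-seq of 8 libraries, 2 for each of 4 sorted groups, was used. The authors trimmed reads with cutadapt, aligned them uniquely to mm10 (GRCm38) with bowtie 1.0.0, removed mitochondrial and duplicate reads and long fragments, called peaks with MACS2 in each library separately and removed blacklisted regions. Their text and the submitters' processing notes name different MACS2 versions (2.1.1.20160309 in the notes). The authors deposited 1 list per library, with a position and a score for each peak; the score was taken to be that of MACS2, from its values, and was at least 13 in each list. Scores are not normalized between libraries, so they were turned into percentiles within a library, with ties averaged. Many weak peaks share a score. One Lats1-CKO luminal replicate was discarded by the authors for quality when replicates were combined, without a name in the text, and both libraries were kept here.

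Genes and TSSs of protein-coding transcripts came from GENCODE M21, and sequences from GRCm38.p6. A gene's TSS value was the percentile of its best peak with at least 1 bp within 1 kb of a TSS, and 0 without one. Body peaks overlapped the gene by at least 1 bp and were given per 1000 peaks of the library. Percentiles of genes with a TSS peak in at least 2 libraries were fitted with limma 3.58.1 (R 4.3.3) on 4 group means, with Benjamini-Hochberg adjustment, and single genes were compared by exact permutation tests (scipy 1.17.1, Python 3.11.15). The paper calls the 2 libraries of a group biological replicates, but the labels do not tie them to separate cultures. The p-values thus measure the spread between these samples, part of which may be technical. Members, classes and lists were chosen with earlier results of these data known. Named genes were Col1a1, Col3a1, Col5a1, those with TSS peaks in all libraries or a complete pattern of genotype or population (also without BM3), those with the 5 largest fitted differences in each direction, and the 5 with most body peaks. The genes with most peaks per length, Loxl3, Fmod and other single members were named after their values were seen. No read counts were at hand, so no depth or counting interval is given. RNA-seq was not analysed.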

Additional observations from a re-analysis of the deposited data

Results flagged for a closer look

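Col7a1, the anchoring fibril collagen, had gene body peaks per 1000 peaks that moved in opposite directions with genotype in the sorted populations. In luminal cells it had 0.0138 in BM1 and 0.034 in BM5 (WT), and 0.0 in BM3 and 0.0107 in BM7 (Lats1-CKO), a mean difference of -0.0185. In basal cells it had 0.0142 in BM2 and 0.0194 in BM6, and 0.0232 in BM4 and 0.0202 in BM8, a mean difference of 0.00488. The differences thus were 0.0234 apart, and this was not tested. The values stand for 1 or 2 peaks in each library with a peak. BM1 and BM7 had 1 peak each, so their values differ by the scaling alone. The share of all genes with such a pattern was not computed.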

How the results depend on the processing

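No paired analysis was possible because the labels carry no replicate numbers shared between groups. Of 121 values recomputed under another setting, 102 stayed within the spread between libraries (counts within 1.5 times) and 19 moved. The cause was not tested. The measure is lenient. For collagen genes with a TSS peak the spread was 10.4, so that 10 and -3.5 in place of 3.25 counted as within it. Calls of 0 in both settings also counted as unchanged. The mean difference in collagen genes with a TSS peak ranged from -3.5 to 10 (Lats1-CKO minus WT) and from -1.0 to 12.5 (basal minus luminal) when single libraries were left out, with the negative values without BM7 and without BM3. For body peaks per 1000 the ranges were -0.12 (without BM7) to 0.559 (without BM3) and 0.38 (without BM3) to 1.06 (without BM7). Collagen genes called by limma were 0 in all settings but 1, that without BM7, which leaves BM3 alone in its group and assumes that it varies like the others: 1 gene by genotype (Col23a1) and 2 by population (Col16a1 and Col23a1), among 1374 and 2145 of all genes. With no library left out, 0 were called by rank, without a filter, within 5 kb or with array weights. Regions in all Lats1-CKO libraries alone ranged from 0 to 12, the latter without BM3, those in WT alone and in luminal libraries alone from 0 to 1 each, and those in basal libraries alone from 1 to 6, the latter without BM7. Without BM3, the number of collagen genes with more body peaks per 1000 in Lats1-CKO than in WT libraries was 7. It was 12 unscaled, 2 above the median score, 1 among the 10000 highest-scoring peaks and 2 with BM3. When a further library was left out besides BM3 it was from 7 to 12, the latter without BM4. These settings were added once the data were known. Leaving out a library can only keep or raise this number and the region counts, and adding BM3 can only keep or lower them. The ranges without a library therefore could not show a fall. Placing multiplexins and Col7a1 with the basement membrane class gave it a genotype difference of 0.039 per 1000 (0.0444 before) and a population difference of 0.109 (0.0481 before), with a pooled SD of 0.0885 within groups before. Peak lists without read counts cannot tell low depth from closed chromatin, and 2 libraries a group limit every test.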
